A study of Mus musculus with 10 samples.

Results

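Mitochondrial ribosomal protein genes are the nuclear genes Mrpl and Mrps, named for the large and the small subunit of the ribosome inside mitochondria. Genes were taken as members where the array's annotation gave an Mrpl or Mrps symbol with a number and at most 1 further letter, which found 76 of the 18193 genes named on the array, 47 Mrpl and 29 Mrps. Each gene was read from its brightest probe set, a group of short probes for 1 transcript, by mean log2(signal + 16) over the 10 arrays. The samples were cochleae, the hearing organ of the inner ear, of male mice at 9 months of age. The 5 wild-type samples carried Polg+/+, and the 5 D257A samples carried the PolgD257A/D257A genotype, a germline change in the proofreading part of the mitochondrial DNA polymerase that lets errors build up in mitochondrial DNA in every tissue. The labels give neither the background strain nor whether cochleae were pooled. All mice had the same housing, diet and water, and total RNA of each sample was read on 1 Affymetrix array. The design text reports no replicate arrays, so each p-value measures the spread between these samples.

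The mitochondrial ribosome translates the few messenger RNAs that mitochondrial DNA encodes, all of them for subunits of oxidative phosphorylation. Its ribosomal RNAs come from mitochondrial DNA, the genome that the mutant polymerase copies with errors, while all of its proteins are encoded in the nucleus, made in the cytosol and imported. Many of those proteins descend from bacterial ribosomal proteins and others exist only in mitochondria. The inner ear is known to depend on this machinery: aminoglycoside antibiotics, which bind the decoding site of bacterial ribosomes, damage hair cells, and inherited faults in mitochondrial ribosomal RNA, in mitochondrial aminoacyl-tRNA synthetases and in ribosome assembly factors cause deafness.

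Promoters of these genes lack a TATA box as a rule, as those of other tested genes do, and often face a neighbouring gene. Of the 76 members, 67 were matched to RefSeq promoters of the mouse assembly GRCm38.p6, in windows of 300 bases, 250 before and 50 after each start. The bases upstream of the start are shown for the 4 members with the smallest p-values described below, each 5′ to 3′ on the gene's own strand. These 4 were picked by p from these data, and none of them differed past the threshold used below. Capitals mark an ETS motif (CCGGAAG or its reverse complement) in Mrpl52 and an NRF1 motif (GCGCA and GCGC with any base between them) in Mrpl44, and the stretches shown for Mrpl42 and Mrpl24 hold neither. Mrpl52 is at chr14:54426809-54426908 on the plus strand, Mrpl44 at chr1:79775918-79776017 on the plus strand, Mrpl42 at chr10:95501950-95502049 on the minus strand, and Mrpl24 at chr3:87919444-87919543 on the plus strand.
Mrpl52: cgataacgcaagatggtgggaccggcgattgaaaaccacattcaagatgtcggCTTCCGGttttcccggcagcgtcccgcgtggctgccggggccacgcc
Mrpl44: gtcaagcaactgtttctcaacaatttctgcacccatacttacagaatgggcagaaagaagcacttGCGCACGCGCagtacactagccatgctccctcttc
Mrpl42: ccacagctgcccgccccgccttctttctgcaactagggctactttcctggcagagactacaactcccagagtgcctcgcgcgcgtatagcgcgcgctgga
Mrpl24: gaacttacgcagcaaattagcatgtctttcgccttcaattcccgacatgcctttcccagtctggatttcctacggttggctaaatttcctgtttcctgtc

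The motifs were counted on both strands in all 73 windows of the 67 matched members, and no matches of different motifs overlapped. NRF1, a transcription factor of nuclear genes for mitochondria, had its motif in 12 windows (16.44%), against 9.311% of the 12437 windows of tested genes and 4.603% of all 32851 windows. The ETS motif, bound by the factor GABP among others, was in 25 windows (34.25%), against 15.75% of tested-gene windows and 8.858% of all. The YY1 motif AANATGGCG was in 11 member windows (15.07%), against 4.543% and 2.38%. A TATA box, TATAAA, was in 5 (6.849%), against 7.719% of tested-gene windows and 13.62% of all windows. At least 1 of the NRF1, ETS and YY1 motifs occurred in 40 member windows (54.79%), against 26.15% of tested-gene windows and 14.22% of all. Among them were windows of Mrpl12, Mrpl42 (YY1), Mrpl44, Mrpl52 and Mrps12. These are matches of letters in a window and were not set against binding data.

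Before the results, the arrays themselves need a description. All 10 arrays were scaled to nearly 1 trimmed mean (1494 to 1496), with median signals of 551.7 to 649.3. They correlated with each other at 0.854 to 0.951 over all 45037 probe sets other than controls, tested or not. Wild-type replicate 3 and D257A replicate 2 each had the lowest mean correlation within its own group (0.914 and 0.890). D257A replicate 4, at 0.906 with its group, was also below wild-type replicate 3. Wild-type replicate 3 and D257A replicate 2 are called below the arrays that stood apart. That name means only the lowest correlation in each group, which some array must have, and no test for outliers was run. Markers of tissue around the cochlea differed between the groups: all 12 skeletal muscle markers were lower in D257A, 6 of them past the test, and their median level on an array, on a log2 scale centred for each gene, ran from 0.34 to 2.11 in wild-type and from -3.61 to 0.26 in D257A. None of the muscle markers was at 0, but Myh2, a fast muscle myosin, read 18.0 on the lowest D257A array. Of 18 cochlear markers 13 were bright enough to test, and none of them passed (2 had an unadjusted limma p under 0.05). Other marker lists moved too: past the test in D257A were 5 of 6 fibroblast and bone genes (Col1a1 among them), 4 of 9 genes of mucosal and squamous epithelium and 2 of 5 adipocyte genes, all lower. Of 10 neutrophil and marrow genes 9 were higher on average, with Mpo and Ctsg past the test and Ltf past it in the other direction, and of 3 myelin genes Mobp was higher past the test. None of the 8 neuron genes or 2 tested erythroid genes passed. Coch, an abundant protein of the spiral ligament, read 74290 ± 6934 (SD, n = 5) in wild-type and 68705 ± 8933 in D257A. The 5 cochlear markers too dim to test were Tecta, Slc26a5, Pou4f3, Strc and Atp6v0a4, which include the outer hair cell motor gene Slc26a5.

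No mitochondrial ribosomal protein gene differed between D257A and wild-type past the threshold. All 76 members were among the brighter 50% of probe sets that were tested, and 0 of 76 had a limma p below 0.05 after adjustment over the 22518 tested probe sets, where 2.32% of the 11871 tested genes did (0.657% higher and 1.66% lower in D257A). At an unadjusted limma p under 0.05 there were 4 members (5.26%), Mrpl52 and Mrpl44 higher and Mrpl42 and Mrpl24 lower, beside 16.7% of all tested genes (6.49% higher and 10.2% lower). For no member did the 5 arrays of one group lie all above the 5 of the other, a pattern seen in 5.29% of tested genes (1.77% higher and 3.52% lower in D257A). The fold changes went both ways, 45 members higher and 31 lower on average, with a median log2 fold change of 0.05 (D257A minus wild-type throughout), beside -0.02 over all tested genes. In bulk tissue, fewer cells of a type and less RNA per cell cannot be told apart, and the part of the marker differences in these values was not tested. Leaving out D257A replicate 2 raised the number with an unadjusted p under 0.05 from 4 to 8 of 76, beside 15.9% of all tested genes in that fit. Leaving out D257A replicate 3 raised the number to 7, beside 17.4% of all tested genes. In each case 0 members were past the adjusted threshold.

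Estimated changes were small for most members. Log2 fold changes of the members ran from -0.68 for Mrpl24 to 0.59 for Mrpl52, with the middle of the distribution between -0.11 and 0.19. Only 6 members (7.89%) exceeded 0.5 in either direction, beside 15.2% of all tested genes: Mrpl24, Mrpl42, Mrpl44, Mrpl52, Mrps18b and Mrps34. The 95% confidence interval lay within -1 and 1, a change of less than 2-fold, for 69 of the 76 members, where 82.1% of tested genes had such an interval. The exceptions were Mrpl12, Mrpl24, Mrps7, Mrps10, Mrps11, Mrps18b and Mrps34. The residual spread within groups was close to that of other genes, with a median SD of 0.32 log2 units for the members and 0.33 for all tested genes.

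**Figure D1:**
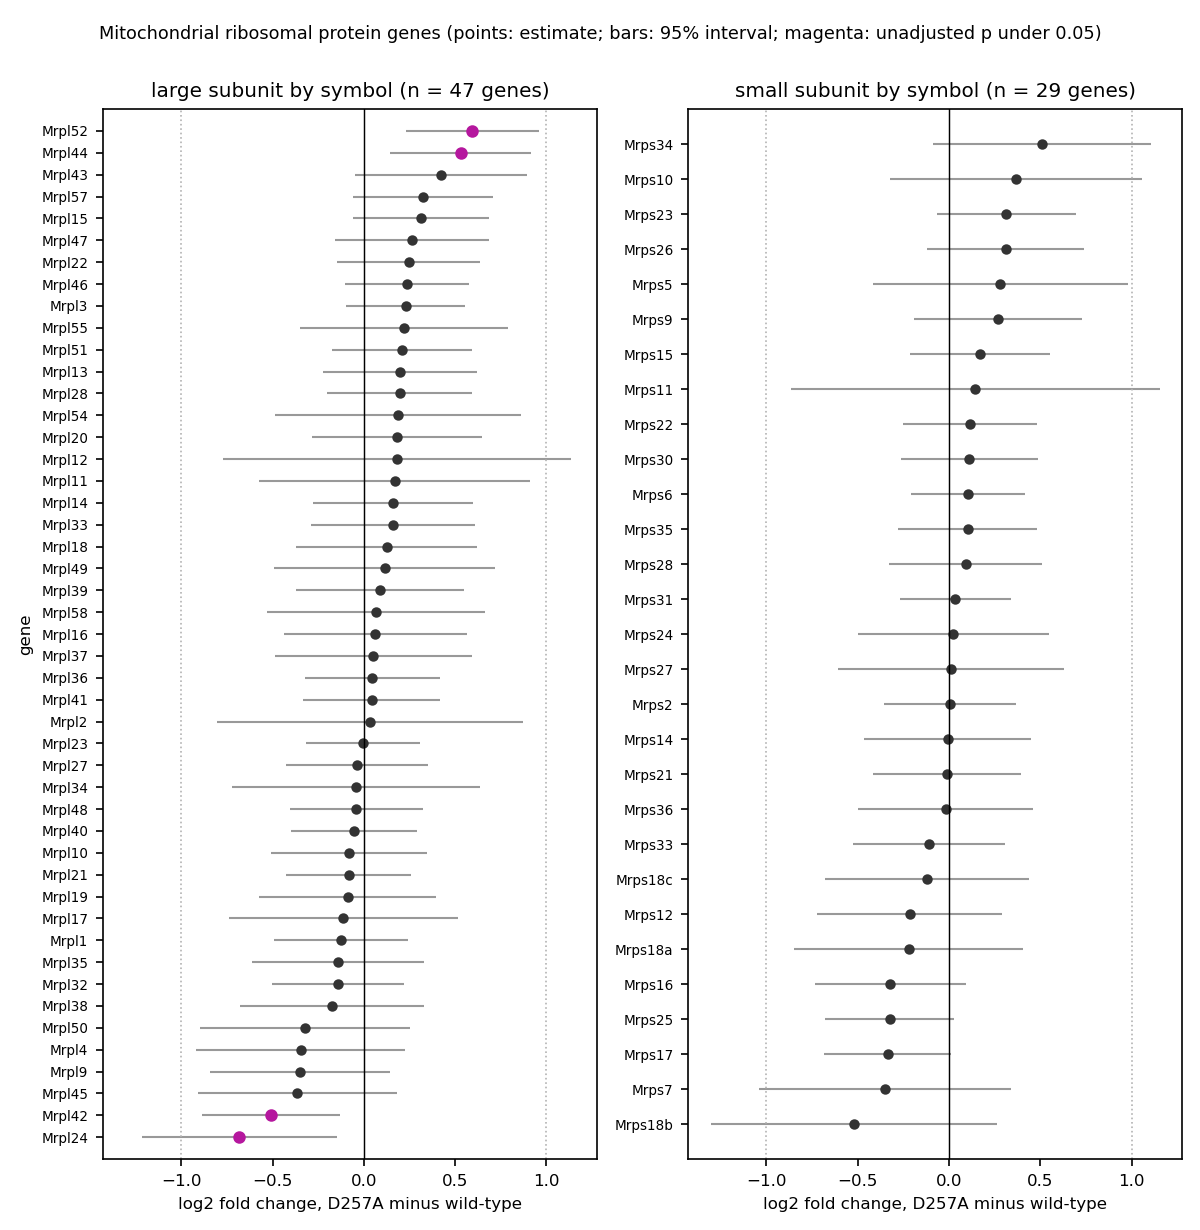
Log2 fold change (D257A minus wild-type, horizontal axis) of each of the 47 large subunit genes (left) and 29 small subunit genes (right), with the limma estimate as a point and its 95% confidence interval as a bar, from 5 arrays a group. Magenta marks the 4 genes with an unadjusted p under 0.05, all in the large subunit panel, and most intervals cross 0 and lie inside the dotted lines at -1 and 1.

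**Figure D2:**
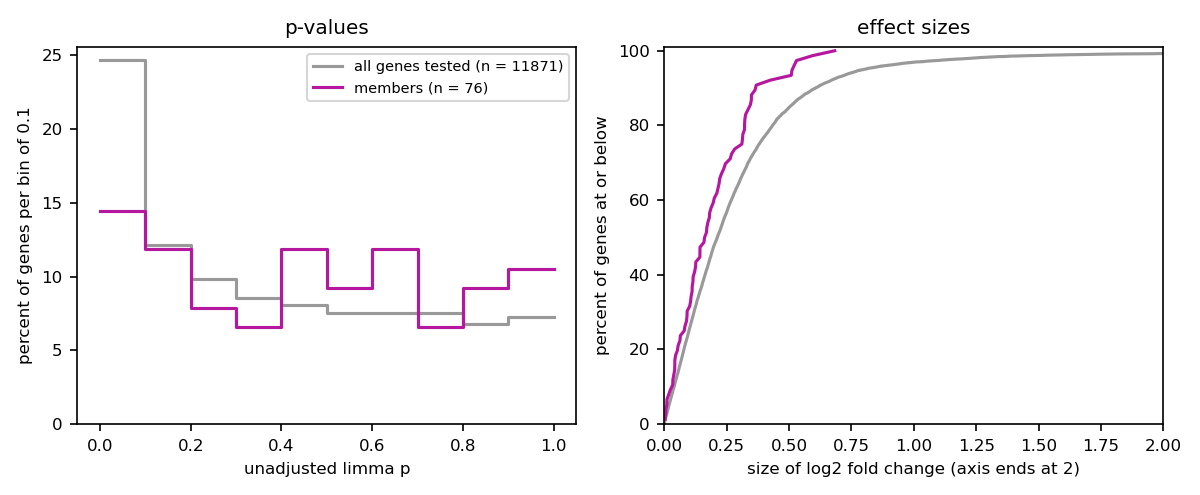
Left, the percent of genes in each bin of 0.1 of the unadjusted limma p for the 76 members (magenta) and all 11871 tested genes (grey). Right, the percent of genes at or below a given size of log2 fold change, where the members' curve lies to the left of the curve for all tested genes and ends at 0.68.

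The member with the smallest p was Mrpl52, a protein of the large subunit found only in mitochondria. Its signal was 5612, 4532, 5288, 4315 and 4781 on wild-type arrays 1 to 5 and 7429, 9323, 5494, 6806 and 8444 on D257A arrays 1 to 5. The D257A arrays were the higher ones except replicate 3, which lay just below wild-type replicate 1. Mean signal went from 4905 ± 536 to 7499 ± 1477 (SD, n = 5 each), 1.51-fold, with a log2 fold change of 0.59 ± 0.17 (SE), an unadjusted limma p of 0.00373 and an adjusted p of 0.0890. All 3 tested probe sets of the gene were higher in D257A, by 0.40, 0.50 and 0.59. Under the 21 alternative settings the smallest adjusted p of Mrpl52 was 0.0542, without D257A replicate 3, which is also the smallest of any member in any setting.

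Mrpl44, a large subunit protein with a ribonuclease III fold that sits near the exit of the peptide tunnel, was the other member with a higher mean. Wild-type arrays 1 to 5 read 11404, 10360, 16683, 15501 and 10453 for its brightest probe set, and D257A arrays 16197, 22529, 17113, 15881 and 20232. Wild-type replicate 3 lay above D257A replicates 1 and 4, and the other 4 wild-type arrays lay below every D257A array. The log2 fold change was 0.53 ± 0.18 (SE; unadjusted limma p 0.0114, adjusted p 0.151). Its 4 tested probe sets disagreed: the 2 brighter ones were higher in D257A, by 0.53 and 0.40, and the 2 dimmer ones lower, by -0.27 and -1.19, and the mean over probe sets reversed the sign to -0.13.

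Mrpl42, another large subunit protein without a bacterial counterpart, was lower in D257A. It read 10748, 9816, 8190, 8847 and 7077 in wild-type and 8250, 5976, 6467, 4833 and 5993 in D257A. Only D257A replicate 1 entered the wild-type range. Its log2 fold change was -0.51 ± 0.17 (SE), or 1.42-fold lower, with an unadjusted limma p of 0.0121 and an adjusted p of 0.154, from the 1 probe set of the gene that was bright enough to test.

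Mrpl24, which descends from the bacterial protein L24 at the rim of the tunnel exit, had the most negative log2 fold change of the members. Its single probe set read 6727, 6758, 4335, 5683 and 7342 in wild-type and 5631, 3413, 5449, 2511 and 2907 in D257A. D257A replicates 1 and 3 lay inside the wild-type range and the other 3 D257A arrays below it, while wild-type replicate 3, an array that stood apart, was the lowest of its group. The log2 fold change was -0.68 ± 0.25 (SE), 1.61-fold lower, at an unadjusted limma p of 0.0164 and an adjusted p of 0.179. Without both arrays that stood apart it was -0.77 (adjusted p 0.141). Mrpl52, Mrpl42 and Mrpl24 kept an unadjusted p under 0.05 in all 21 alternative settings and Mrpl44 in 20 of 21, the exception being the mean over its probe sets.

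**Figure D3:**
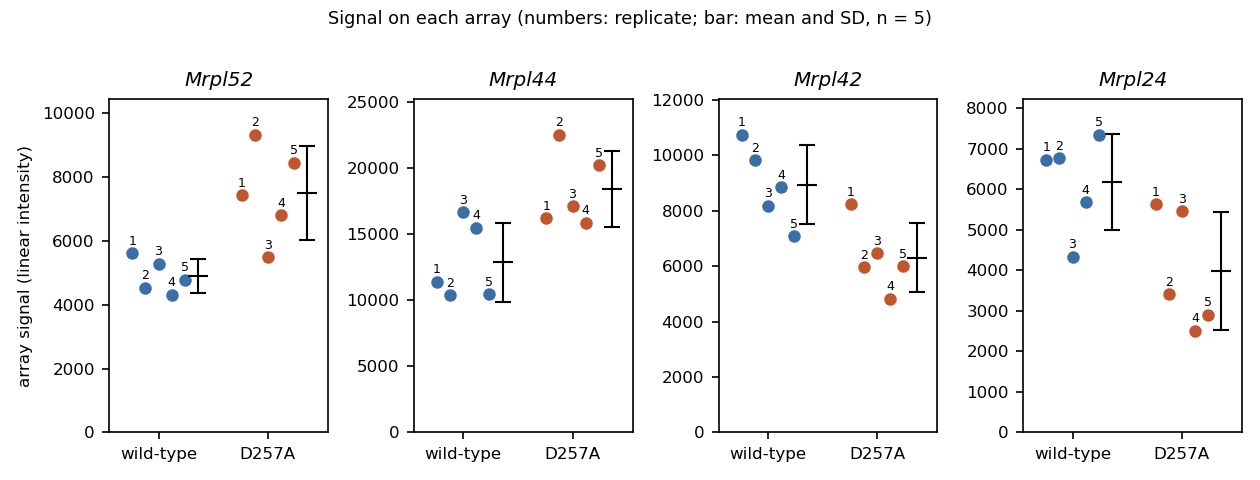
Array signal (linear intensity, vertical axis from 0) of the 4 members with an unadjusted p under 0.05, with each array as a numbered point and the group mean ± SD (n = 5) beside it. The groups overlap in every panel, by a single D257A array for Mrpl52 and Mrpl42, by wild-type replicate 3 for Mrpl44 and by arrays of both groups for Mrpl24.

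Of the other large subunit members, Mrpl43, Mrpl57 and Mrpl15 came next by p, all with a higher mean in D257A that did not pass the test. Mrpl43, a mitochondria-specific protein, read 3373, 3226, 2748, 3057 and 4388 in wild-type and 3834, 3044, 4068, 6460 and 5719 in D257A. The 2 highest readings were D257A replicates 4 and 5, and the remaining arrays overlapped (log2 fold change 0.42 ± 0.22 SE, adjusted limma p 0.349). Mrpl57, also mitochondria-specific, read 4369, 3768, 4490, 3374 and 3236 in wild-type and 3986, 5014, 3722, 5868 and 5683 in D257A. Here D257A replicates 2, 4 and 5 lay above every wild-type array (0.32 ± 0.18, adjusted limma p 0.382). Mrpl15, a homologue of bacterial L15, read 4038, 3704, 3940, 3023 and 2686 in wild-type and 3889, 4773, 3425, 4526 and 4945 in D257A, again with D257A replicates 2, 4 and 5 on top (0.31 ± 0.17, adjusted limma p 0.380). Of its 5 tested probe sets 3 were higher and 2 lower. The brightest, read here, is of a kind that the array's naming marks as matching several transcripts. The tested ones outside that kind had log2 fold changes of 0.00331 and -0.22.

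Small subunit genes gave no unadjusted limma p under 0.05, beside 8.51% of large subunit genes and 16.7% of all tested genes. The smallest adjusted limma p of a small subunit gene was 0.314, for Mrps17. Mrps17, the homologue of a bacterial protein that binds the small subunit's ribosomal RNA, read 5569, 4947, 4686, 4109 and 5254 in wild-type and 4984, 3236, 3559, 4211 and 3594 in D257A. D257A replicates 2, 3 and 5 lay below all wild-type arrays, and the log2 fold change was -0.34 ± 0.16 (SE). Mrps25, a mitochondria-specific protein, read 2561, 1919, 2423, 2121 and 2531 in wild-type and 2226, 1731, 2110, 1592 and 1584 in D257A, with 3 D257A arrays below the wild-type range (-0.33 ± 0.16). Both tested probe sets of Mrps25 were lower, by -0.33 and -0.41. Mrps16, a homologue of bacterial S16, read 3935, 3367, 2617, 3586 and 3438 in wild-type and 2643, 1847, 2713, 3623 and 2905 in D257A. Its D257A arrays were low apart from replicate 4, and wild-type replicate 3 was as low as they were (-0.32 ± 0.19, adjusted limma p 0.424).

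Among the 17 small subunit genes with a higher mean in D257A, Mrps34 and Mrps23, both mitochondria-specific, had the smallest p. Mrps34 read 4350, 4178, 2013, 4430 and 4853 in wild-type and 3914, 6762, 3661, 6850 and 7023 in D257A. D257A replicates 2, 4 and 5 were high, D257A replicates 1 and 3 lay under most wild-type arrays, and wild-type replicate 3 was lowest of all. The log2 fold change was 0.51 ± 0.28 (SE; adjusted limma p 0.373), and without both arrays that stood apart it was 0.20. Mrps23 read 2694, 2907, 2371, 2573 and 2675 in wild-type and 3267, 2233, 3401, 3798 and 4060 in D257A. All D257A arrays but replicate 2 were above wild-type, and without both of those arrays the log2 fold change went from 0.31 to 0.42 (unadjusted limma p 0.0200, adjusted p 0.179).

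By subunit, the large subunit genes had a median log2 fold change of 0.06 (28 higher, 19 lower) and the small subunit genes 0.02 (17 higher, 12 lower), a difference of 0.04. That difference turned negative on leaving out wild-type replicate 3 (-0.08), D257A replicate 5 (-0.02) or D257A replicate 1 (-0.00605), and it was 0.09 without D257A replicate 2 and 0.12 without both arrays that stood apart. Leaving out wild-type replicate 3 also turned the large subunit median, to -0.02. On single arrays the large minus small difference of medians averaged -0.02 ± 0.06 over the 5 wild-type arrays (SD) and -0.01 ± 0.18 over the 5 D257A arrays. D257A replicate 2 was the low value, at -0.31, and the other 9 arrays lay between -0.12 and 0.14. The symbols do not follow the structure everywhere: Mrps18a and Mrps30 encode proteins that sit in the large subunit, and Mrps36 encodes a subunit of the oxoglutarate dehydrogenase complex. Sorted by structure, the 49 large subunit genes kept a median of 0.06 and the 26 small subunit genes had 0.03. By ancestry, with Mrps18a and Mrps18b counted as mitochondria-specific because their products do not take the place of the bacterial protein they resemble, the 30 mitochondria-specific genes had a median of 0.08 and the 45 bacterial homologues 0.03. An unadjusted limma p under 0.05 was seen for 2.22% of the bacterial homologues (Mrpl24) and 10% of the mitochondria-specific genes. Both shares were under the 16.7% of all tested genes.

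**Figure D4:**
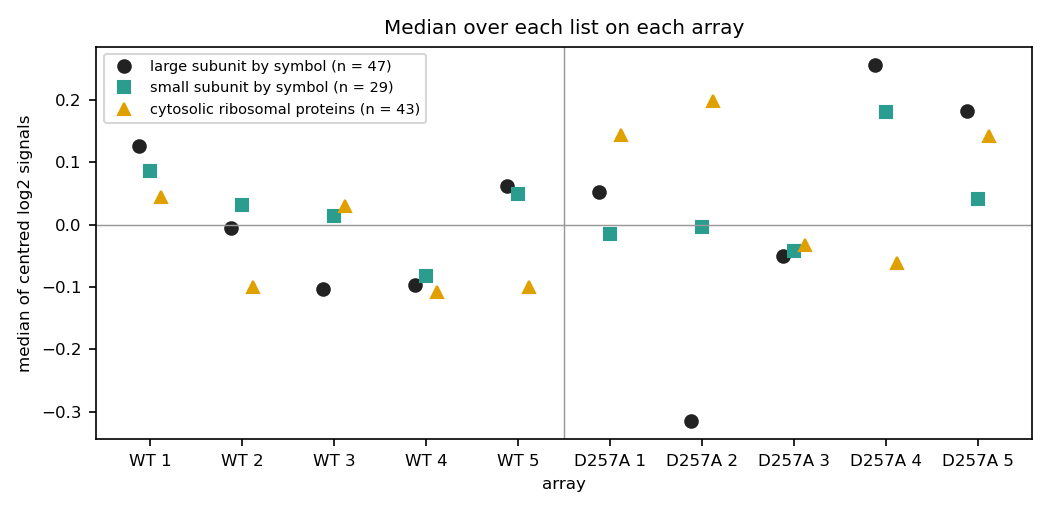
Median over the large subunit genes (black circles, 47 genes), the small subunit genes (green squares, 29 genes) and cytosolic ribosomal protein genes (yellow triangles, 43 genes) on each array, as log2 signal centred for each gene. Large and small subunit medians stay close on most arrays and part on D257A replicate 2, where the large subunit median is -0.32 and the small subunit median 0.00.

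Members with a known special role were read whatever their p. Mrpl12, the stalk protein that recruits translation factors and has been found bound to the mitochondrial RNA polymerase, read 3760, 3552, 1009, 3249 and 4514 in wild-type and 3328, 1334, 2835, 5337 and 5521 in D257A. The low values were wild-type replicate 3 and D257A replicate 2, and the high values D257A replicates 4 and 5 (log2 fold change 0.18 ± 0.44 SE). Mrps12, the homologue of the bacterial decoding-centre protein S12 in which streptomycin resistance arises, read 6073, 5258, 4798, 4246 and 5152 in wild-type and 3624, 2832, 4277, 7704 and 4688 in D257A. D257A replicate 4 was the highest array and D257A replicates 1 and 2 the lowest (-0.22 ± 0.23). Mrps30 read 2289, 1909, 2186, 2224 and 1845 in wild-type and 1679, 2252, 2033, 2856 and 2634 in D257A, with D257A arrays both above and below wild-type (0.11 ± 0.17).

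The 3 Mrps18 genes are all related to 1 bacterial protein, S18, but their products occupy different places in the ribosome, and only Mrps18c is counted above as its homologue. Mrps18b had the most negative log2 fold change of the small subunit genes, at -0.52 ± 0.36 (SE; adjusted limma p 0.501): it read 1936, 1734, 698, 1767 and 1920 in wild-type and 2018, 1016, 1501, 644 and 645 in D257A. D257A replicates 4 and 5 were as low as wild-type replicate 3, and the other 4 wild-type arrays were close together. Without both arrays that stood apart the Mrps18b value was -0.78, with an unadjusted limma p of 0.0354 and an adjusted p of 0.231. Mrps18a read 4974, 4548, 3433, 5096 and 6264 in wild-type and 4300, 1900, 4644, 6827 and 4451 in D257A, with D257A arrays on both sides of the wild-type range (-0.22 ± 0.29), and without D257A replicate 2 its sign turned, to 0.06. Mrps18c read 3364, 4213, 2107, 3037 and 1588 in wild-type and 2838, 2584, 2885, 2608 and 1711 in D257A, with the D257A arrays inside the wild-type range (-0.12 ± 0.26). Mrps36, the dehydrogenase subunit, read 5870, 4895, 7192, 4318 and 3762 in wild-type and 5129, 7784, 4314, 4457 and 4113 in D257A, high on both arrays that stood apart and with a log2 fold change of -0.02 ± 0.22.

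How closely a member was measured varied. Mrps31 had the smallest residual SD (0.116 log2 units): its signals were 1987, 2050, 2090, 1727 and 1846 in wild-type and 2081, 2062, 2042, 1710 and 2041 in D257A, with a 95% interval of the log2 fold change from -0.27 to 0.34. Mrpl23, whose bacterial homologue L23 lies at the tunnel exit, read 5317, 5354, 5504, 4893 and 5892 in wild-type and 5351, 6702, 5157, 4596 and 5243 in D257A, with an interval from -0.31 to 0.31. Mrpl3 read 2943, 2581, 3207, 2313 and 2614 in wild-type and 2820, 3457, 2863, 3323 and 3534 in D257A, with an interval from -0.10 to 0.56. For these 3 genes the groups overlapped and the interval lay inside -1 and 1. At the other end, Mrps11 had a residual SD of 0.896: it read 1505, 1902, 1089, 2289 and 2663 in wild-type and 2218, 516, 1907, 3496 and 4062 in D257A, and its interval ran from -0.87 to 1.15. Mrpl2, whose bacterial homologue L2 lies by the peptidyl transferase centre, read 4494, 4237, 2328, 3826 and 4802 in wild-type and 3853, 1327, 3969, 6733 and 6678 in D257A, with an interval from -0.80 to 0.87. Mrpl12 was the remaining member of the 3 most variable, and in all 3 genes wild-type replicate 3 and D257A replicate 2 were the lowest arrays of their groups.

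That array pattern was shared by many members. Wild-type replicate 3 was the lowest of its group for 31 of 76 members (40.8%), beside 26.6% of all tested genes, and D257A replicate 2 for 33 (43.4%), beside 23.7%. Against the mean of the rest of its group, each gene's deviation had the same sign on these 2 arrays for 64 of the 76 members. Members lower by more than 0.3 log2 units on both arrays numbered 22 and included Mrpl2, Mrpl11, Mrpl12, Mrps11, Mrps5 and Mrps7. Members higher by that much on both numbered 8: Mrpl28, Mrpl33, Mrpl39, Mrpl44, Mrpl51, Mrps14, Mrps24 and Mrps36. Such sign and size counts were not taken over all tested genes, so they are not read as particular to the members. Wild-type replicate 3 was the lowest or highest of its group for 67.1% of members and 60.0% of all tested genes. For D257A replicate 2 these shares were 65.8% and 54.9%. On D257A replicate 2 the deviations ran from -2.40 for Mrps11 to 0.98 for Mrps24. Whether RNA quality or tissue makeup of these arrays had a part in this was not tested.

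As a description over the 10 arrays, the correlation of each member with the mean of the other members ran from -0.69 to 0.93, with 28 members over 0.7 and 14 under -0.4. Mrpl2 was the highest. Pairs of members had a median correlation of 0.07, with the 5th and 95th percentiles of the 2850 pairs at -0.67 and 0.82. These values rest on 10 arrays that share the 2 arrays described above and hold both genotypes. The 4 genes with an unadjusted limma p under 0.05 had correlations with the mean of the others from -0.35 for Mrpl44 to -0.02 for Mrpl52. The 14 members under -0.4 were all other genes. Since the 4 were picked by p, these values are not read as particular to them.

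**Figure D5:**
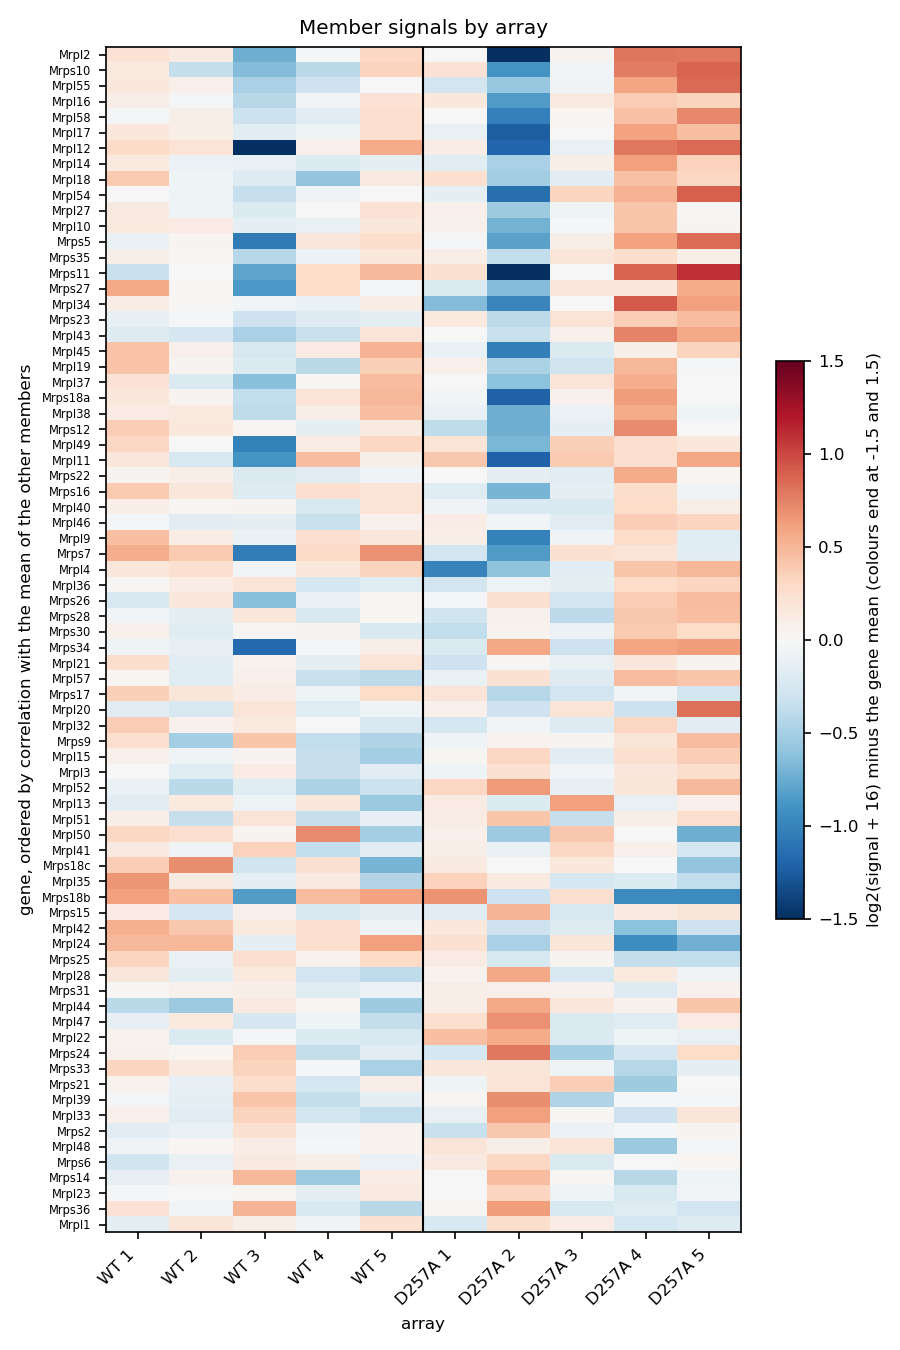
Heat map of log2(signal + 16) minus each gene's mean for the 76 members (rows, ordered by their correlation with the mean of the other members) on the 10 arrays (columns; wild-type left of the line, D257A right). Rows at the top are low (blue) on WT 3 and D257A 2 and high (red) on D257A 4 and D257A 5, and many rows at the bottom are high on D257A 2.

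Leaving out both of those arrays left 0 members past the adjusted threshold and raised the number with an unadjusted limma p under 0.05 from 4 to 8. Higher in D257A were then Mrpl52, Mrpl44, Mrpl43 and Mrps23, and lower were Mrpl42, Mrpl24, Mrps18b and Mrps7. The median log2 fold change of the members was then 0.10, and 18.1% of tested genes had an unadjusted p under 0.05 on those 8 arrays.

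Genes with several probe sets allow a check within the array. The 76 members had 156 probe sets, of which 124 were tested, and 30 members had more than 1. In 15 of the 30 the tested probe sets all had 1 sign, and in the other 15 they did not: Mrpl1, Mrpl3, Mrpl9, Mrpl15, Mrpl21, Mrpl28, Mrpl35, Mrpl38, Mrpl44, Mrpl49, Mrps2, Mrps5, Mrps6, Mrps14 and Mrps21. Of the 124 probe sets 0 passed the adjusted limma threshold, where 2.28% of all tested probe sets did. An unadjusted limma p under 0.05 was seen for 9 of the 124, beside 16.7% of tested genes by their brightest probe set. Of these 9, 7 were higher in D257A, and they belonged only to Mrpl52, Mrpl11, Mrpl15 and Mrpl44, so they do not stand for separate genes. Among the tested probe sets 23 are of the kinds that the array's naming marks as matching several transcripts, and 9 members were represented by one.

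Other genes of mitochondrial translation also gave no gene past the threshold. Over 4 lists, other mitoribosomal proteins, translation factors, assembly and ribosomal RNA modification factors, and mitochondrial aminoacyl-tRNA synthetases, 52 genes were tested, 26 higher and 26 lower on average, with a median log2 fold change of 0.01 and 0 past the adjusted threshold (2.32% of all tested genes). An unadjusted limma p under 0.05 was seen for 4 of the 52 (7.69%), 2 in each direction, beside 16.7% of all tested genes. None of the 4 tested other mitoribosomal proteins was among them: Ptcd3, which works with the small subunit, read 2546, 2401, 2857, 2277 and 2300 in wild-type and 2719, 1896, 2161, 1676 and 1959 in D257A. All its D257A arrays but replicate 1 were below the wild-type range (-0.26 ± 0.16 SE, adjusted limma p 0.447). Gadd45gip1, a large subunit protein, read 2787, 2497, 892, 2318 and 2734 in wild-type and 1874, 3050, 2157, 4122 and 3918 in D257A, with D257A replicates 2, 4 and 5 on top and wild-type replicate 3 lowest (0.46 ± 0.33, adjusted limma p 0.504). Of the 12 translation factors 4 were higher and 8 lower. Lrpprc, which stabilises mitochondrial messenger RNAs, read 4392, 3256, 3587, 3388 and 3737 in wild-type and 3305, 2241, 3435, 2307 and 2025 in D257A. Its D257A replicates 2, 4 and 5 lay below all wild-type arrays (-0.49 ± 0.18, unadjusted limma p 0.0207, adjusted p 0.197). Tufm, the elongation factor that delivers aminoacyl-tRNA, read 2701, 2274, 1254, 1535 and 2056 in wild-type and 1135, 342, 1738, 1672 and 1384 in D257A. The groups overlapped, and the 2 arrays that stood apart were the lowest of each (-0.78 ± 0.39, adjusted limma p 0.340).

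Among the 22 tested assembly factors, 11 were higher and 11 lower. Eral1, a GTPase that binds the small subunit's ribosomal RNA during assembly and whose human counterpart is a deafness gene, read 2873, 2599, 2766, 2747 and 3128 in wild-type and 1852, 2046, 2119, 2172 and 2392 in D257A. Every D257A array lay below every wild-type array, as in 3.52% of tested genes, at a log2 fold change of -0.41 ± 0.14 (SE), an unadjusted limma p of 0.0108 and an adjusted p of 0.148. Trmt61b, a methyltransferase of mitochondrial RNA, read 912, 1084, 869, 773 and 771 in wild-type and 1013, 1623, 1229, 1063 and 1160 in D257A, overlapping through wild-type replicate 2 (0.45 ± 0.18, adjusted limma p 0.231). Of the 14 tested mitochondrial aminoacyl-tRNA synthetases 10 were higher and 4 lower, with a median of 0.11 and none at an unadjusted p under 0.05. Nars2, for asparagine, read 779, 557, 715, 841 and 768 in wild-type and 1000.4, 1265, 782, 794 and 1014 in D257A, with D257A replicates 1, 2 and 5 above the wild-type range (0.39 ± 0.19 SE, adjusted limma p 0.333). Hars2, a gene of inherited deafness with ovarian failure, read 1134, 1295, 1125, 1046 and 1211 in wild-type and 1108, 695, 1315, 850.1 and 842 in D257A. Its D257A replicates 2, 4 and 5 lay below the wild-type range and replicate 3 above it (-0.30 ± 0.19, adjusted limma p 0.459).

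The cytosolic ribosome, made of a separate set of nuclear-encoded proteins, had 43 tested genes on its list, 31 higher and 12 lower (median log2 fold change 0.12). The median over this list on an array averaged -0.05 ± 0.08 (SD) over wild-type arrays and 0.08 ± 0.12 over D257A arrays, 5 of each, and the groups overlapped. An unadjusted limma p under 0.05 was seen for 11 of the 43 (25.6%), 7 higher and 4 lower, beside 16.7% of all tested genes (6.49% higher and 10.2% lower). Rpl27 read 24315, 21901, 24280, 19957 and 20845 in wild-type and 29902, 31330, 28587, 34165 and 29280 in D257A. Every D257A array was above every wild-type array, as in 1.77% of tested genes (0.46 ± 0.12 SE, adjusted limma p 0.0751). The single gene past the threshold was Rpl3l, a ribosomal protein made in striated muscle, which read 4086, 2326, 770, 1829 and 2643 in wild-type and 122, 98.1, 213, 225 and 1531 in D257A. D257A replicate 5 alone entered the wild-type range, and the log2 fold change was -2.95 ± 0.63 (SE; adjusted limma p 0.0323). The call was lost with the replicate block (adjusted p 0.0538), where the brightest 30% of probe sets left the gene out, and when 8 of the 10 arrays were each removed in turn (adjusted p 0.0550 to 0.0949), and it held without wild-type replicate 3 (0.0181) or D257A replicate 5 (0.00371). The part of the 12 lower muscle markers in it was not tested.

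Many members share a promoter region with a neighbour transcribed the other way. Of the 67 members in the promoter table, 25 (37.3%) had a start within 1000 bases of the start of such a neighbour, beside 18.5% of the 9574 tested genes in the table. They form 24 pairs, since Mrpl46 and Mrps11 face each other. In 17 pairs both genes were tested, 8 of these had the same sign of log2 fold change, and 0 partners passed the adjusted threshold. The stretch between the starts is shown for 3 pairs that join the mitochondrial ribosome to itself, to an aminoacyl-tRNA synthetase and to the mitochondrial DNA helicase, on the plus strand of GRCm38.p6, with ETS motifs in capitals. They lie at chr7:78783090-78783130, chr7:28741822-28741967 and chr19:45006443-45006557.
Mrpl46-Mrps11: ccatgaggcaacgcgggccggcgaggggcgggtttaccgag
Mrps12-Sars2: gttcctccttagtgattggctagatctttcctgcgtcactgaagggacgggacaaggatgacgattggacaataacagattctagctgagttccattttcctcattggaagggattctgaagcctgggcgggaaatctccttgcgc
Mrpl43-Twnk: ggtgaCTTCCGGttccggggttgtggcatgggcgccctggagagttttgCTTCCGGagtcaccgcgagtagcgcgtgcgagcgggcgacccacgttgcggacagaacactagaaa

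Mrpl46 and Mrps11, a large and a small subunit gene with 41 bases between their starts, had log2 fold changes of 0.24 ± 0.16 and 0.14 ± 0.47 (SE). Mrps12 and Sars2, the mitochondrial seryl-tRNA synthetase, 146 bases apart, had -0.22 ± 0.23 and -0.06 ± 0.22. Mrpl43 and Twnk, the helicase that unwinds mitochondrial DNA ahead of the polymerase, 115 bases apart, went in opposite directions on average, at 0.42 ± 0.22 and -0.55 ± 0.19. The Twnk value had an unadjusted limma p of 0.0132 and an adjusted p of 0.160. Mrpl47 and Ndufb5, a complex I subunit, 307 bases apart, had 0.26 ± 0.19 and 0.11 ± 0.19. None of these 8 values passed the adjusted limma threshold.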

How the data were processed

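Total RNA of 10 cochleae samples (5 wild-type, 5 D257A) was labelled with biotin and hybridised to Affymetrix arrays, per the labels' protocols. The authors deposited 1 table of linear array intensity for 45101 probe sets; GCOS 1.3 is named in the submitters' processing notes, with settings not given in the sources used here, and the nearly equal trimmed means show that arrays were scaled. Left out were 64 control probe sets. Signals were taken as log2(signal + 16), the brighter 50% of probe sets by mean (22518, mean signal from about 577.4) were tested by moderated linear models (limma 3.58.1, run under R 4.3.3) whose prior variance follows the signal, on 8 residual degrees of freedom, and p-values were adjusted by Benjamini-Hochberg over all tested probe sets, with a threshold of 0.05. A gene was read from its brightest probe set with 1 gene symbol (34945 probe sets have one); symbols come from the platform annotation, and all 76 members were found in the RefSeq gene table. The precision is limited by 5 arrays a group. In simulated data with 200 changed probe sets among 22518, changes of 1 log2 unit were recovered at 50% and of 2 units at 92%, with 2.74% false calls. The simulated noise was independent between probe sets, without the deviations that many genes share on an array here, so these rates may differ for the real arrays. The members, gene lists and tests were chosen with earlier results of these data known, and lists carry no test of their own. Values by array are given for the 12 members with the smallest p, any member whose groups do not overlap, the 3 most and 3 least variable members, 7 members chosen by role, and the 2 genes with the smallest p of each other list; Mrps7, Mrps10 and Mrpl11 and the gene pairs were chosen after their values were seen. Alternatives changed the pseudocount, scaling, filter, variance model, probe set rule, replicate block and arrays left out.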

Additional observations from a re-analysis of the deposited data

Results flagged for a closer look

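Both groups of the named genes were looked at, 76 groups of 5 arrays. In 8 of them the highest or lowest array stood far from the rest. The cutoff is one that chance alone passes about 1 time in 20 for a group taken on its own. That rate is not a reference for these groups. Some of the genes were chosen for their spread or p, and the groups share the same arrays. The share of flagged groups over all tested genes was not taken. Wild-type replicate 3 was low in 4 of the 8 flagged groups. There Mrps34 read 2012.6 beside 4178.3 to 4852.9 on the other wild-type arrays, and Mrpl12 1009.4 beside 3248.7 to 4513.9. Mrps18b read 698.1 there beside 1734 to 1936.3. Gadd45gip1, the large subunit protein outside the Mrp names, read 891.8 beside 2318.4 to 2786.5. D257A replicate 2 was low for Tufm, at 341.6 beside 1135.4 to 1738.3. D257A replicate 4 was low for Mrps31, at 1710.1 beside 2041.4 to 2080.8, and D257A replicate 5 was low for Mrps18c, at 1711 beside 2583.6 to 2884.8. Rpl3l, the ribosomal protein of striated muscle, read 1530.9 on D257A replicate 5 beside 98.1 to 224.7 on the other D257A arrays, and that array also had the highest muscle marker median of its group (0.26).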

How the results depend on the processing

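No member passed the adjusted limma threshold under any of the 21 alternative fits. With the cutoffs of the design text, an unadjusted p under 0.05 and a fold over 1.1, 4 members passed, beside 16.7% of genes. The number with an unadjusted p under 0.05 was 7 with array weights (20.8% of all tested genes) and 8 without both arrays that stood apart (18.1%). It was 4 to 8 when each array was left out in turn, beside 12.2% to 19.4% of all tested genes. Calls in the other lists, 1 in the full comparison (Rpl3l), numbered 0 with the brightest 30% of probe sets, 2 with array weights, 0 with the replicate block, and 0 to 1 when leaving out arrays in turn, 0 in 8 of those 10 fits. Centring each array on its median moved the median of all genes from -0.02 to -0.12, that of the members to -0.05 and that of the small subunit to -0.0763, and reversed Mrps31 (-0.0664) and Mrpl2 (-0.0670). The median of the members lay between 0.00 and 0.09 when each array was left out, with the low end, -0.00252, without D257A replicate 5. The mean over probe sets reversed Mrpl44 (-0.13) and Ptcd3 (0.10), and quantile normalization Mrpl23 (0.0275) and Mrps36 (0.0134). Leaving out single arrays reversed the sign of Mrps31 (-0.00639 to 0.0871), Mrpl23 (-0.0837 to 0.0520), Mrps11 (-0.11 to 0.62), Mrpl12 (-0.19 to 0.50), Mrpl2 (-0.16 to 0.42), Mrps18a (-0.40 to 0.0559), Mrps18c (-0.31 to 0.0379) and Mrps36 (-0.18 to 0.11), none of them called in any setting. Of 503 values of 24 named members, 476 kept their direction and side of the threshold. The cause of these changes was not tested. With the labelled replicate number as a block, 0 members were called and 5 had an unadjusted p under 0.05, beside 14.7% of all tested genes (smallest adjusted limma p 0.194). Deviations of same-numbered arrays correlated at 0.13, -0.16, -0.21, 0.09 and 0.27, so the numbers are not taken to pair the samples. With 5 arrays a group, changes of 1 log2 unit were recovered at 50% in the simulation, which held no deviations shared across an array.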

Other observations

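Mrps7 and Mrps10, small subunit genes of bacterial descent, had wide intervals in the full comparison. Mrps7, whose human counterpart is known from inherited deafness with organ failure, read 2822, 2535, 926, 2361 and 3096 in wild-type and 1574, 1060, 2251, 2209 and 1727 in D257A, for a log2 fold change of -0.35 ± 0.32 (SE; adjusted limma p 0.625). Its lowest readings in each group were on wild-type replicate 3 and D257A replicate 2. Without these arrays all the D257A arrays were below all the wild-type arrays, at -0.48 (unadjusted limma p 0.0211, adjusted p 0.182). In that fit 18.1% of all tested genes had an unadjusted p under 0.05. The share of tested genes whose groups separate on those arrays was not taken, and Mrps7 was chosen after its values were seen. The separation is therefore not read as particular to Mrps7. Mrps10 read 2379, 1679, 1370, 1622 and 2723 in wild-type and 2499, 1147, 2089, 3673 and 3969 in D257A (0.37 ± 0.32, adjusted limma p 0.60), and without both arrays the value was 0.52 (adjusted p 0.280).

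Mrpl11, a homologue of the bacterial stalk-base protein L11, gave different answers from its 3 tested probe sets, all higher on average in D257A. The brightest went from 2812 ± 903 to 3277 ± 1191 (SD, n = 5; log2 fold change 0.17, unadjusted limma p 0.630). The others, of the kind marked as matching several transcripts, went from 2292 ± 185 to 3307 ± 549 (0.51, unadjusted p 0.00548, adjusted p 0.107) and from 1004 ± 149 to 1458 ± 458 (0.49, unadjusted p 0.0468, adjusted p 0.288). A further such probe set, of Mrpl15, went from 468 ± 146 to 783 ± 39.5 (0.78, unadjusted limma p 0.00536, adjusted p 0.105), while the 4 brighter ones of that gene had log2 fold changes from -0.22 to 0.31.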
